A study of Mus musculus with 16 samples.

Results

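The 9 genes described here encode proteins that airway club cells are known for or that are used beside them as secretory cell genes, and they were chosen by symbol from the 49315 gene identifiers of the count table. They are Scgb1a1, Scgb3a1, Scgb3a2, Bpifa1, Bpifb1, Reg3g, Lypd2, Aqp5 and Hp, and all 9 were among the 15993 genes that passed edgeR's filter on low counts. Cultures of mouse tracheal epithelial cells (MTECs) from male and female mice, either wild-type (WT) or labelled knockout (KO) for LMAN1, were left untreated (naive) or given house dust mite extract (HDM) at 20 µg/ml overnight, which makes 8 groups of 2 libraries. The KO mice carried a whole-body loss of LMAN1 on a C57BL/6J background and came with WT littermates from heterozygous parents, and cells of both genotypes were grown at an air-liquid interface on coated inserts. The ages of the mice were not given in the sources used here. Cells of 3 tracheas were pooled to set up 2 conditions, and the labels call the libraries biological replicates without saying what separates them, so that a p-value measures the spread between these libraries, which may be partly technical. LMAN1 is a cargo receptor that carries glycoproteins out of the endoplasmic reticulum and was studied as a receptor for HDM, and the comparisons ask whether sex, genotype and HDM change gene expression in these cultures.

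Club cells are the secretory cells of the airway lining. They release secretoglobins, a family of small disulfide-linked proteins of airway fluid, together with proteins that bind microbes, and they also metabolise inhaled chemicals and act as progenitors for ciliated and goblet cells. In the mouse trachea, Scgb1a1 is the usual defining marker of these cells, while Scgb3a1 and Scgb3a2 are found in partly different secretory cells along the airway. Not every product of the 9 genes is a club cell secretion: Aqp5 is a water channel of the apical membrane, Lypd2 is predicted to be a membrane-anchored surface protein, and Hp encodes haptoglobin, a haemoglobin-binding acute phase protein made mainly by the liver.

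The sequence before the transcription start was taken from RefSeq promoters (GRCm38.p6) for 5 of the 9 genes, Scgb3a1, Bpifa1, Bpifb1, Reg3g and Aqp5. The 250 bases before the start of 3 genes that fell together under HDM in female WT MTECs are shown, because they differ in the factor motifs they hold. Each is written 5′ to 3′ on the gene's own strand, and capitals mark matches to 4 motifs searched on both strands: TGTTTNC for FOXA factors, CAAGNG for NKX2-1, TTNNGNAA for C/EBP factors and TTCNNNGAA for STAT factors.
Scgb3a1 (chr11:49663345-49663594, plus strand): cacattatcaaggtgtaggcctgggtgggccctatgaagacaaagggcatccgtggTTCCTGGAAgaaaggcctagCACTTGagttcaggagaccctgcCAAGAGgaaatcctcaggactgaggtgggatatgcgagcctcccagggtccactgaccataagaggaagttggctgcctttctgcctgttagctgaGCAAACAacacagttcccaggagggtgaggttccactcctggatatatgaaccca
Bpifa1 (chr2:154142630-154142879, plus strand): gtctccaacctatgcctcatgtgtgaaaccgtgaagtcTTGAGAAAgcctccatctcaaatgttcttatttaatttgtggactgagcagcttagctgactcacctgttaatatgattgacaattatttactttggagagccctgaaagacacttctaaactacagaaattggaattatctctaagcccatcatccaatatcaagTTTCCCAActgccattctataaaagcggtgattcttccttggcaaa
Reg3g (chr6:78468875-78469124, minus strand): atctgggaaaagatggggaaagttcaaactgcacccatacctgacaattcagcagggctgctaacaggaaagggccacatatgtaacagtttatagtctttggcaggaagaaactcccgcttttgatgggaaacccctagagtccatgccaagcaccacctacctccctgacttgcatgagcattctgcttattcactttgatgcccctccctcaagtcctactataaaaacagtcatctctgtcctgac
The Scgb3a1 window held 1 FOXA match at -55 to -49 from the start, 2 NKX2-1 matches at -151 to -146 and -174 to -169, and 1 STAT match at -194 to -186, and none of these overlapped another. The Bpifa1 window held 2 C/EBP matches, at -212 to -205 and at -46 to -39. No match was found in the Reg3g window or in that of Aqp5 (chr15:99590778-99591027, plus strand). The Aqp5 window was set by its RefSeq start and lies almost wholly inside the gene as annotated for the counts, which starts at 99590782. It therefore holds almost none of the bases before that annotated start. Bpifb1 had 2 listed starts, and the window of the upstream one (chr2:154190568-154190817) held 1 FOXA match at -43 to -37, while that of the downstream one (chr2:154200130-154200379) held 1 STAT and 1 NKX2-1 match. These motifs are short and common: among 32851 promoter windows of the same length, 17.8% held the FOXA letters, 40.6% the NKX2-1 letters, 36.8% the C/EBP letters and 7.02% the STAT letters. A match is a description of the letters and not evidence that a factor binds there.

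Libraries held 21860698 to 43442188 counts on genes. Lman1, the gene targeted in the KO mice, was at 101.3 to 144 CPM (the usual library-scaled count, here with TMM factors) in the 8 WT libraries. It was at 12.8 to 14.2 CPM in 3 naive libraries labelled KO and at 63.4 to 78.1 CPM in the other 5 libraries labelled KO, which were all 4 HDM libraries and male KO naive replicate 2. Because 5 of the 8 libraries labelled KO held Lman1 RNA well above the level of the other 3, KO below stands for the label only. Male KO naive replicate 2 also stood nearer to the male KO HDM libraries (chi-square of the counts per gene 8.66 and 10.1) than to its own replicate (48.2). Such nearness to another group was not confined to it, but the other cases given here pair libraries of equal replicate number. Male KO naive replicate 2 instead lay nearest to male KO HDM replicate 1 (8.66), and near HDM replicate 2 as well (10.1). Male WT naive replicate 2 was nearer to male WT HDM replicate 2 (10.2) than to its own replicate (31.7). Female WT naive replicate 1 was nearer to female KO naive replicate 1 (7.09) than to its own replicate (19.7). The counts of called genes in the 5 comparisons that use male KO naive replicate 2 are also given without it.

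The defining marker of the cell type was almost absent. Scgb1a1, whose protein is the most abundant secretion of club cells in the intact airway, lay between 0.0473 and 3.75 CPM in all 16 libraries. Cyp2f2, a cytochrome P450 enzyme that also marks club cells and is named here for this check, was by contrast at 16700 and 12610 CPM in female WT naive MTECs. The 9 genes together took 0.4506% to 1.161% of all counts in the 12 libraries other than the 4 from HDM-treated female MTECs. Female WT HDM MTECs gave 0.0359% and 0.0283%, and female KO HDM MTECs gave 0.1825% and 0.1571%.

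Expressed per kilobase of exon, which allows a comparison between genes, the levels in the 8 naive libraries were far apart. Reg3g was the highest, with a median of 1868 CPM per kb, and ranked 9 among the 15993 genes tested. Aqp5 followed at 868 CPM per kb (rank 28), Scgb3a1 at 475 (rank 57) and Scgb3a2 at 233 (rank 152). Hp (63.7 CPM per kb), Bpifa1 (49.3) and Lypd2 (42.4) ranked 731, 989 and 1189. Scgb1a1 was at 4.02 and Bpifb1 at 0.324 CPM per kb, at ranks 8241 and 13356, below the other 7 genes. Reg3g has a close relative in Reg3b, between which reads could be split, but Reg3b lay below 0.1 CPM in every library.

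**Figure D1:**
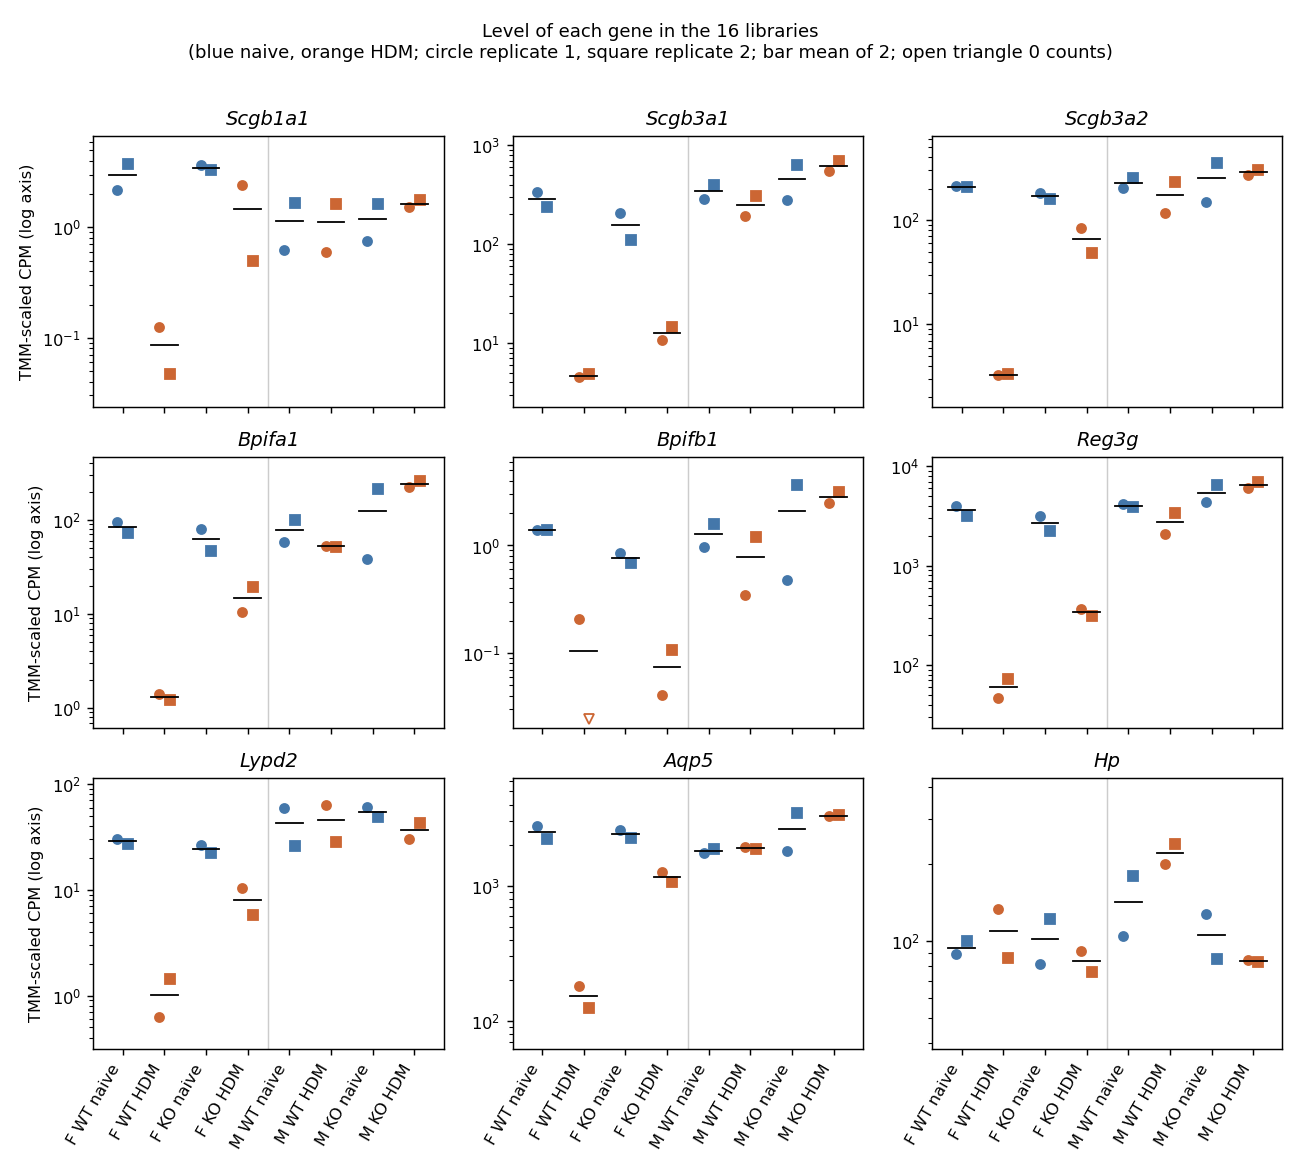
Level of each of the 9 genes in the 16 libraries, as TMM-scaled CPM on a log axis, by group (F female, M male, KO as labelled). Points are libraries, the bar is the mean of 2 and the open triangle is a library with 0 counts. Except for Hp, the points of female WT HDM MTECs lie far below those of female WT naive MTECs, and the means of female KO HDM MTECs lie between or, for Bpifb1, beside the WT HDM mean. In males, male KO naive replicate 1 lies well below the male KO HDM points for Bpifa1 (38.1 against 224 and 259 CPM) and Bpifb1 (0.482 against 2.46 and 3.16 CPM).

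HDM was followed by a near loss of these transcripts in female WT MTECs. Of the 9 genes, 8 were lower in HDM than in naive MTECs (edgeR quasi-likelihood test, Benjamini-Hochberg adjusted p under 0.05), against 43.1% of all genes tested that were called in either direction, 3591 lower and 3297 higher. The exception was Hp. The median log2 fold change of the 9 genes was -5.02, and that of all genes tested was -0.02. The mean level of the 8 genes under HDM was 1.56% to 7.50% of the naive mean. In bulk RNA, fewer cells of a type and less RNA per cell cannot be told apart. Leaving out any single library left 7 or 8 genes called.

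The pair of secretoglobins that were well expressed fell 61.5-fold and 64.0-fold in mean level in that comparison, and kept unequal shares of their naive level in female KO MTECs. Scgb3a1 (chr11:49663610-49665118), also called HIN-1, was at 338 and 237 CPM in female WT naive MTECs, at 4.53 and 4.83 CPM in female WT HDM MTECs, at 206 and 109.9 CPM in female KO naive MTECs and at 10.6 and 14.6 CPM in female KO HDM MTECs. Its 4 female HDM libraries did not overlap any other library. The log2 fold change with HDM was -5.94 (SE 0.51, edgeR adjusted p = 6.2e-06) in WT and -3.64 (SE 0.45, adjusted p = 0.00081) in KO female MTECs. Scgb3a2 (chr18:43764289-43767399), a secretoglobin of the conducting airways also known as UGRP1, was at 213 and 207 CPM in female WT naive, 3.25 and 3.31 CPM in female WT HDM, 180.9 and 158 CPM in female KO naive and 83.2 and 47.9 CPM in female KO HDM MTECs. With HDM, Scgb3a2 therefore kept 38.7% of its naive mean level in female KO MTECs, where Scgb3a1 kept 7.98%. For Scgb3a2 the log2 fold change was -6.00 (SE 0.52, edgeR adjusted p = 6.5e-06) in WT and -1.37 (SE 0.39, adjusted p = 0.047) in KO female MTECs.

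The ratio of Scgb3a1 to Scgb3a2 within a library shows the same split without any scaling. The ratio of raw counts was 1.58 and 1.15 in female WT naive and 1.40 and 1.46 in female WT HDM MTECs. It was 1.14 and 0.697 in female KO naive and 0.1275 and 0.3055 in female KO HDM MTECs. In male libraries it ran from 1.32 to 2.29. The female KO HDM libraries were thus the lowest of the 16, and both genes had kept their proportion in female WT MTECs although both were near their lowest levels there.

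**Figure D2:**
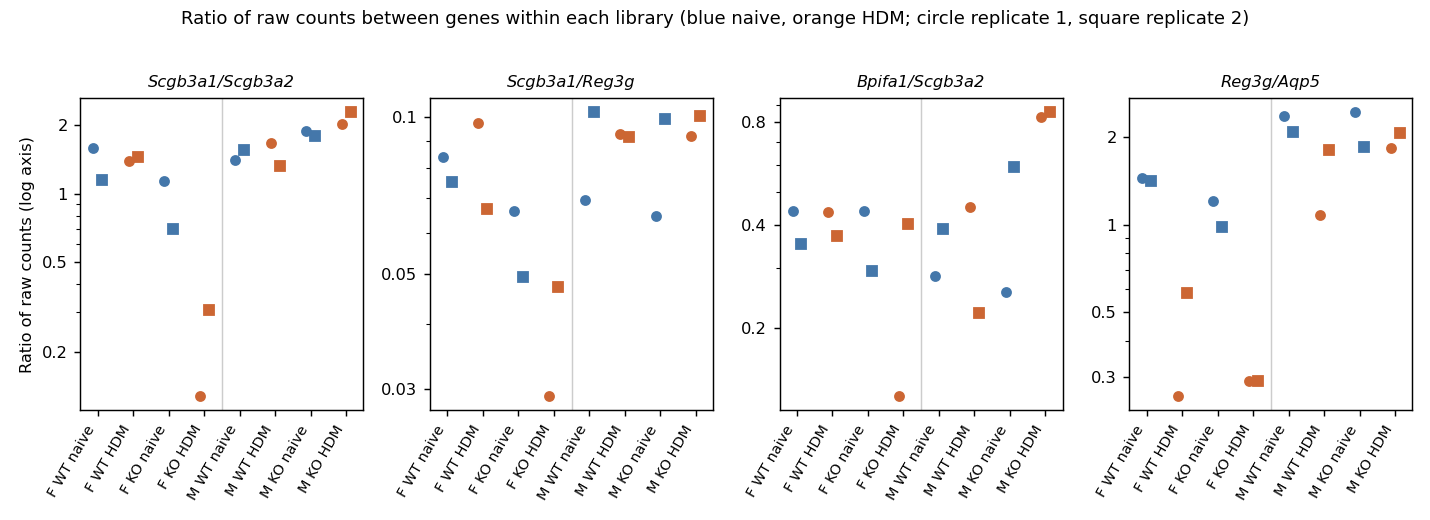
Ratio of raw counts between pairs of genes in each library, on log axes, by group (F female, M male, KO as labelled). Scgb3a1/Scgb3a2 is lowest in the female KO HDM libraries (0.1275 and 0.3055), and Reg3g/Aqp5 is 0.2585 to 0.585 in the 4 female HDM libraries and 0.982 to 2.43 in the other 12.

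Scgb1a1 (chr19:9083636-9087958, minus strand), the club cell secretory protein, was too low for a close estimate. It was at 2.18 and 3.75 CPM in female WT naive, 0.1248 and 0.0473 CPM in female WT HDM, 3.65 and 3.28 CPM in female KO naive and 2.42 and 0.501 CPM in female KO HDM MTECs. The female WT HDM values are 3 and 1 counts, against 60 and 167 counts in the naive libraries, a naive over HDM ratio of 35.6 (95% counting interval 13.7 to 131.6, which covers counting error only). The fall passed the test in WT (log2 fold change -5.02, SE 0.99, edgeR adjusted p = 0.0017), and in KO female MTECs, where the libraries spread widely, the value was -1.26 (SE 0.67, adjusted p = 0.27). In male MTECs it lay between 0.598 and 1.75 CPM whatever the genotype and treatment.

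The BPI-fold genes are neighbours on chromosome 2 and encode lipid-binding proteins that coat the airway surface. Bpifa1 (chr2:154142880-154149219), which encodes SPLUNC1, a regulator of airway surface liquid with antimicrobial activity, was at 93.8 and 72.5 CPM in female WT naive, 1.41 and 1.23 CPM in female WT HDM, 79.8 and 46.2 CPM in female KO naive and 10.5 and 19.3 CPM in female KO HDM MTECs. The groups did not overlap in either genotype. The fall was -5.96 on the log2 scale (SE 0.85, edgeR adjusted p = 0.00021) in WT, and in KO the log2 fold change of -2.07 (SE 0.62) missed the threshold (adjusted p = 0.056). Bpifb1 (chr2:154190818-154220369), the longer relative known as LPLUNC1, was at only 1.38 and 1.39 CPM in female WT naive MTECs and had 5 and 0 counts in the HDM libraries. Its naive over HDM ratio was 12.5 (95% counting interval 5.20 to 39.4) in WT and 10.2 (3.74 to 38.7) in KO female MTECs, where the HDM libraries held 1 and 3 counts. Bpifb1 passed the test in WT (log2 fold change -3.61, SE 1.13, edgeR adjusted p = 0.021) and not in KO (-3.28, SE 1.22, adjusted p = 0.11). Leaving out either naive library or HDM replicate 2 also ended the WT call, with adjusted p of 0.055, 0.054 and 0.13.

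Reg3g (chr6:78466269-78468872, minus strand), a C-type lectin that binds the cell wall of Gram-positive bacteria, was the most abundant of the 9 genes per kilobase. It was at 4024 and 3164 CPM in female WT naive, 46.6 and 72.4 CPM in female WT HDM, 3127 and 2234 CPM in female KO naive and 365 and 310.2 CPM in female KO HDM MTECs. All 4 female HDM libraries lay below every other library, and the WT ones below the KO ones. The log2 fold change was -5.92 (SE 0.34, edgeR adjusted p = 4.4e-07) in WT and -2.99 (SE 0.30, adjusted p = 0.00032) in KO female MTECs.

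Lypd2 and Aqp5, the genes of the membrane proteins, fell as well. Lypd2 (chr15:74732247-74734329, minus strand) was at 30.5 and 27.0 CPM in female WT naive, 0.624 and 1.42 CPM in female WT HDM, 26.4 and 22.4 CPM in female KO naive and 10.4 and 5.76 CPM in female KO HDM MTECs. The log2 fold change of Lypd2 was -4.84 (SE 0.60, edgeR adjusted p = 7.9e-05) in WT and -1.60 (SE 0.46, adjusted p = 0.046) in KO. Aqp5 (chr15:99590782-99594829) was at 2782 and 2238 CPM in female WT naive, 180 and 123.8 CPM in female WT HDM, 2588 and 2275 CPM in female KO naive and 1257 and 1065 CPM in female KO HDM MTECs. Aqp5 fell by 4.05 on the log2 scale (SE 0.29, edgeR adjusted p = 1.7e-06) in WT and by 1.07 (SE 0.26, adjusted p = 0.023) in KO. It was thus the least reduced of the called genes apart from Bpifb1 in WT and the least reduced in KO. The ratio of Reg3g to Aqp5 counts went from 1.45 and 1.41 in female WT naive to 0.2585 and 0.585 in female WT HDM MTECs and from 1.21 and 0.982 to 0.291 and 0.291 in KO, so Reg3g fell further than Aqp5 in both genotypes.

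Hp (chr8:109575128-109579172, minus strand) did not follow the other genes. It was at 88.9 and 99.8 CPM in female WT naive, 133.7 and 86.1 CPM in female WT HDM, 81.8 and 122.3 CPM in female KO naive and 91.4 and 75.8 CPM in female KO HDM MTECs. These groups overlapped, and neither log2 fold change, 0.22 in WT (SE 0.29, edgeR adjusted p = 0.57) and -0.29 in KO (SE 0.29, adjusted p = 0.58), passed the test.

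**Figure D3:**
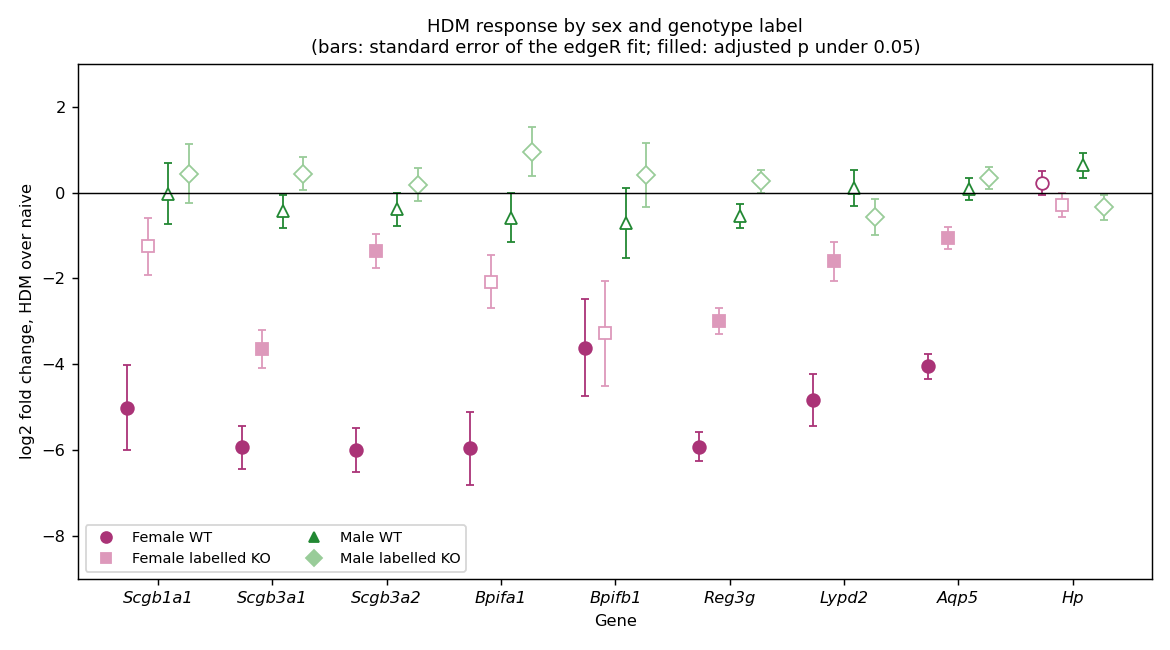
Log2 fold change of HDM over naive MTECs for the 9 genes in each sex and genotype label, with the standard error of the edgeR fit as bars. Filled points passed an adjusted p of 0.05, which holds for 8 genes in female WT, 5 in female KO and 0 in either male background.

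In female KO MTECs, 5 of the 9 genes were lower with HDM, Scgb3a1, Scgb3a2, Reg3g, Lypd2 and Aqp5, against 10.4% of all genes tested that were called, 923 lower and 741 higher. The median log2 fold change of the 9 genes was -1.60, and that of all genes tested was -0.0049. With any 1 of the 4 libraries left out the count was 2, since Scgb3a2, Lypd2 and Aqp5 then missed the threshold, while Reg3g and Scgb3a1 stayed past it. The HDM libraries of this group were among the 5 labelled KO with the higher Lman1 level. The comparison is thus of naive and HDM libraries that differ in Lman1 as well, and these differences cannot be told apart. The difference between the WT and KO responses was itself tested. It passed for 6 of the 9 genes, all with the smaller fall in KO, against 11.2% of all genes tested. It was 4.63 on the log2 scale for Scgb3a2 (SE 0.63, edgeR adjusted p = 0.0017), 3.89 for Bpifa1 (SE 1.08, adjusted p = 0.041), 3.23 for Lypd2 (SE 0.77, adjusted p = 0.023), 2.98 for Aqp5 (SE 0.37, adjusted p = 0.00099), 2.93 for Reg3g (SE 0.40, adjusted p = 0.0018) and 2.30 for Scgb3a1 (SE 0.63, adjusted p = 0.040). Scgb1a1 missed the threshold at 3.76 (SE 1.26, edgeR adjusted p = 0.074). The calls of Scgb3a2, Aqp5 and Reg3g held with each library left out, and the count went down to 3 without either replicate of female WT HDM, without female WT naive replicate 1, without female KO naive replicate 2 or without female KO HDM replicate 1.

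Side by side under HDM, female KO MTECs held more of these transcripts than female WT MTECs, with Lman1 at 66.6 and 78.1 CPM in the KO and 117 and 101.3 CPM in the WT libraries. The test of KO minus WT passed for 7 genes, all higher in KO, against 29.2% of all genes tested, and the exceptions were Bpifb1 and Hp. Scgb3a2 had the greatest log2 difference, 4.32 (SE 0.50, edgeR adjusted p = 0.00020), followed by Scgb1a1 at 3.97 (SE 1.04, adjusted p = 0.014). Scgb3a1 had the smallest among the 7, 1.44 (SE 0.50, edgeR adjusted p = 0.048). The Scgb1a1 value rested on 3 and 1 counts in the WT HDM libraries and 60 and 14 in the KO HDM libraries. It was 2.45 without female KO HDM replicate 1 and 3.49 without female WT HDM replicate 2. Reg3g, Lypd2, Aqp5 and Scgb3a2 remained called with each library left out, and the count was 4 without female WT HDM replicate 2. In naive female MTECs 0 of the 9 genes differed between KO and WT by edgeR, as for 0% of all genes tested. At an unadjusted p under 0.05, 1 of the 9 and 203 of all genes passed, and DESeq2 called 0 of the 9 and 1 of all genes.

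A fall of this kind was not detected in male MTECs. With HDM, edgeR called 0 of the 9 genes in male WT and 0 in male KO MTECs, where 0% of all genes tested were called in each. At an unadjusted p under 0.05 there were 1 of the 9 genes in WT, Hp, and 0 in KO, beside 665 and 857 of all genes, and DESeq2 called 0 of the 9 in both, beside 2 and 1 of all genes. Without male KO naive replicate 2, edgeR still called 0 of the 9 genes in male KO MTECs, beside 20 of all genes, but 5 of the 9 were at an unadjusted p under 0.05, beside 2714 of all genes, and the median log2 fold change of the 9 went from 0.33 to 0.94. Scgb3a1 was at 287 and 396 CPM in male WT naive, 194 and 309 CPM in male WT HDM, 281 and 638 CPM in male KO naive and 552 and 693 CPM in male KO HDM MTECs. Reg3g was at 4138 and 3871, 2094 and 3368, 4362 and 6415, and 5997 and 6880 CPM in the same groups. The male WT HDM libraries of Reg3g lay below the naive ones, with a log2 fold change of -0.55 (SE 0.28, edgeR adjusted p = 0.94), and for Scgb3a1 they overlapped.

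In male KO naive MTECs the replicates of several other genes were far apart. Scgb3a2 was at 203 and 255 CPM in male WT naive, 116 and 234 CPM in male WT HDM, 149 and 357 CPM in male KO naive and 271 and 303 CPM in male KO HDM MTECs. Bpifa1 was at 57.6 and 99.1, 52.6 and 52.0, 38.1 and 210.5, and 224 and 259 CPM in these groups, so that male KO naive replicate 2 lay with the HDM libraries and replicate 1 below every other male library. Aqp5 was at 1753 and 1871, 1937 and 1872, 1798 and 3483, and 3278 and 3348 CPM, with the same library apart. Without male KO naive replicate 2, the log2 fold change with HDM in male KO MTECs went from 0.95 to 2.66 for Bpifa1 (edgeR adjusted p = 0.059) and from 0.33 to 0.88 for Aqp5 (adjusted p = 0.14). Lypd2 ran from 26.1 to 63.1 CPM and Bpifb1 from 0.346 to 3.69 CPM over the 8 male libraries.

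Hp stood apart in males too. It was at 104.9 and 179.8 CPM in male WT naive, 199.6 and 241 CPM in male WT HDM, 127.3 and 85.0 CPM in male KO naive and 84.2 and 82.9 CPM in male KO HDM MTECs. Its log2 fold change with HDM in male WT was 0.63 (SE 0.29, edgeR adjusted p = 0.94), with no overlap between the groups, and it had the highest mean of all 8 groups in male WT HDM MTECs.

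Under HDM the sexes differed widely. In WT MTECs 8 of the 9 genes were higher in males than in females, against 41.6% of all genes tested, and the exception was Bpifb1 (log2 difference 2.78, SE 1.18, edgeR adjusted p = 0.076). Scgb3a1 differed by 5.75 (SE 0.51, edgeR adjusted p = 7.2e-06), Scgb3a2 by 5.74 (SE 0.52, adjusted p = 8.3e-06) and Reg3g by 5.52 (SE 0.34, adjusted p = 6.6e-07). Hp was among the 8, at 1.00 (SE 0.29, edgeR adjusted p = 0.016), and lost its call without male WT HDM replicate 2 (adjusted p = 0.079) or female WT HDM replicate 2 (0.14). Leaving out single libraries gave 6 to 9 genes. In KO MTECs 7 were higher in males, against 25.3% of all genes tested, with the greatest log2 differences for Scgb3a1 (5.62, SE 0.48, edgeR adjusted p = 4.7e-05), Bpifb1 (5.14, SE 1.13, adjusted p = 0.0064) and Reg3g (4.25, SE 0.32, adjusted p = 2.4e-05). Scgb1a1 and Hp did not pass there. The Bpifb1 value in KO rested on 1 and 3 counts in the female HDM libraries and was 4.67 without female KO HDM replicate 1. In WT MTECs the Scgb1a1 difference of 3.60 (SE 1.06) rested on 3 and 1 counts in the female HDM libraries.

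Between naive male and female MTECs, of the 9 genes edgeR called 0 in WT, against 0.1% of all genes tested, and 0 in KO, against 0.188%. At an unadjusted p under 0.05 there were 0 in WT and 4 in KO, Reg3g, Scgb3a1, Lypd2 and Scgb1a1, beside 1968 and 1585 of all genes, and DESeq2 called 0 and 2 of the 9, beside 204 and 216 of all genes. Without male KO naive replicate 2, edgeR called 0 of the 9 in KO, beside 11 of all genes, 4 of the 9 and 1447 of all genes were at an unadjusted p under 0.05, and the median log2 difference of the 9 went from 0.98 to -0.18. Levels of Scgb1a1 did not overlap between the sexes in either genotype: its 4 naive female libraries (2.18 to 3.75 CPM) lay above all 8 male libraries, with a log2 difference of -1.39 in WT (SE 0.68, edgeR adjusted p = 0.43) and -1.51 in KO (SE 0.67, adjusted p = 0.48). Neither difference passed the test. Aqp5 was also lower in both male WT naive libraries (1753 and 1871 CPM) than in the female ones (2782 and 2238 CPM), with a log2 difference of -0.47 (SE 0.26, edgeR adjusted p = 0.48).

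The test of the male minus female difference of the HDM response itself passed in WT for 7 of the 9 genes, all but Bpifb1 and Hp, against 24.2% of all genes tested. Scgb3a2 had the greatest difference, 5.61 on the log2 scale (SE 0.64, edgeR adjusted p = 0.00013), and Aqp5 the smallest of the 7, 4.12 (SE 0.38, adjusted p = 3.3e-05). In KO it passed for 2 genes, Scgb3a1 at 4.08 (SE 0.58, edgeR adjusted p = 0.0068) and Reg3g at 3.25 (SE 0.40, adjusted p = 0.0042), against 3.56% of all genes tested. Without male KO naive replicate 2, the KO count was 6, beside 1148 in place of 569 of all genes.

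Between KO and WT male MTECs edgeR called 0 of the 9 genes in naive and 0 in HDM libraries, and 0 for the difference of the HDM response, with 0% of all genes tested called in each. At an unadjusted p under 0.05 the counts were 0, 6 and 1 of the 9, beside 867, 2897 and 1389 of all genes. DESeq2 called 0, 4 and 0 of the 9, beside 1, 562 and 0 of all genes. Without male KO naive replicate 2, edgeR called 0 of the 9 for the naive difference and 0 for the difference of the response, beside 1 and 4 of all genes. The counts at an unadjusted p under 0.05 were then 1 and 7 of the 9, beside 670 and 2772 of all genes. The HDM values were a log2 difference of 2.21 for Bpifa1 (SE 0.59, edgeR adjusted p = 0.16), 1.31 for Scgb3a1 (SE 0.39, adjusted p = 0.18), 1.24 for Reg3g (SE 0.28, adjusted p = 0.16) and -1.40 for Hp (SE 0.29, adjusted p = 0.16). For these 4 genes, and also for Scgb3a2, Bpifb1 and Aqp5, the 2 KO and 2 WT HDM libraries did not overlap. The share of all genes without overlap was not counted, so this is a description only.

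The order of the 8 groups was alike for most of the genes. Male KO HDM MTECs had the highest mean of Scgb3a1 (622 CPM), Scgb3a2 (287 CPM), Bpifa1 (241 CPM), Bpifb1 (2.81 CPM), Reg3g (6438 CPM) and Aqp5 (3313 CPM), although for 5 of these 6 genes they overlapped male KO naive MTECs, and Bpifa1 was the exception. Each overlap came from male KO naive replicate 2 alone, and replicate 1 lay below both male KO HDM libraries for all 6 genes. Female WT HDM MTECs had the lowest mean of every gene but Bpifb1 and Hp. Between these ends, male WT naive, female WT naive, male WT HDM and female KO naive MTECs overlapped with their neighbours in the order for Scgb3a1, Scgb3a2 and Bpifa1. Lypd2 was highest in male KO naive MTECs (54.5 CPM), and Scgb1a1 in female KO naive MTECs (3.46 CPM).

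Over the 16 libraries the levels of Scgb3a1, Scgb3a2, Bpifa1, Reg3g, Lypd2 and Aqp5 ran together, with Pearson's r of log2(CPM + 1) between 0.86 and 0.98 for each pair, given as a description. It was 0.98 for Scgb3a1 with Reg3g, 0.98 for Scgb3a2 with Aqp5 and 0.95 for Scgb3a1 with Bpifa1. The points include the 4 female HDM libraries, in which all 6 genes were low. Over the 12 other libraries r was 0.93 for Scgb3a1 with Reg3g, 0.63 for Scgb3a2 with Aqp5 and 0.83 for Scgb3a1 with Bpifa1. Lypd2 lost its relation with Reg3g, from 0.95 to 0.21, and for Lypd2 with Scgb1a1 r went from 0.46 to -0.84. Hp had an r between -0.13 and 0.17 with each of the others over the 16 libraries. Over the 12 other libraries it ran from -0.73 with Aqp5, through -0.58 with Bpifa1 and -0.54 with Reg3g, to 0.036 with Lypd2.

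The genes outside the 9 whose pattern was most like theirs, by the same r over 16 libraries and among genes with a log2 of the mean CPM of at least 2, were A2ml1 for Scgb3a1 (0.99, and 0.98 over the 12 libraries), Acsm1 for Scgb3a2 (0.99 and 0.89), Rhpn2 for Bpifa1 (0.98 and 0.93), Naprt for Reg3g (0.99 and 0.87), Egln3 for Lypd2 (0.99 and 0.96) and Slc16a11 for Aqp5 (0.99 and 0.92). For Scgb3a2 the third in likeness was Aqp4 (0.99 and 0.97), a water channel like Aqp5, and for Aqp5 the second was Elf3 (0.99 and 0.82), an epithelial transcription factor. Hp had no close companion, with Gmds highest at 0.80.

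Other genes known from airway secretory cells were lower in the same libraries. The gene lists here and below were chosen with earlier results of these data known, so their counts are a description only. Of a list of 17, 15 were tested, and in female WT MTECs 14 were lower with HDM and 0 higher, with a median log2 fold change of -2.80, against 43.1% of all genes tested that were called (3591 lower, 3297 higher). The greatest changes among them were those of Cckar, a cholecystokinin receptor whose HDM libraries held 0 counts, Sec14l3, a lipid-transfer protein (-5.77), Muc5b, the main secreted mucin of the resting airway (-5.34), and Aldh1a1, a retinaldehyde dehydrogenase (-4.96). In female KO MTECs 7 were lower and 0 higher (median -0.93), against 10.4% of all genes tested (923 lower, 741 higher), with Muc5b at -3.89, Ltf, the iron-binding lactoferrin, at -2.05, Cbr2, a carbonyl reductase, at -1.52 and Aldh1a1 at -1.17.

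Relatives of the 9 genes within their families were mostly silent in these cultures. Of 41 such genes 11 passed the filter, and 24 were below 0.1 CPM in every library, among them Reg3a, Reg3b, Bpifa2 and Scgb2a2. In female WT MTECs 9 of the 11 were lower with HDM and 0 higher, beside the same 43.1% of all genes. Reg1, a relative of Reg3g, went from 1.67 and 1.46 CPM to 0 counts in both HDM libraries. Aqp4 had a log2 fold change of -5.97 and Aqp3, a water and glycerol channel of basal cells, of -4.76. In female KO MTECs 3 were lower, beside 10.4% of all genes called, Aqp4 (-2.33), Lbp (-1.31), a lipopolysaccharide-binding protein, and Lypd6b (-0.63), while Aqp3 was at -0.34 and missed the threshold.

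Transcription factors and Notch genes that act in secretory cells were mostly lower as well in female WT MTECs. Of 21, 13 were lower and 2 higher with HDM, with a median log2 fold change of -0.66, where 43.1% of all genes were called. The greatest falls were of Elf5 (-4.60), Spdef (-4.29), which drives goblet cell differentiation, Hey1 (-4.03), a Notch target, and Foxa3 (-2.85). The 2 higher were Foxa2 (1.05) and Jag1 (0.61), a Notch ligand. In female KO MTECs 7 were lower and 0 higher, where 10.4% of all genes were called, led by Spdef (-2.86), Elf5 (-2.58), Hey1 (-1.84) and Xbp1 (-0.83), a factor of the secretory pathway's stress response.

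Acute phase genes, to which Hp belongs, were mixed. Of 18 genes of the acute phase and of signalling through STAT3, 16 were tested, and in female WT MTECs 9 were lower and 2 higher with HDM (median log2 fold change -0.72), beside 43.1% of all genes called in either direction. Orm2 (-3.67), Lrg1 (-3.19) and Orm1 (-3.07), which encode plasma glycoproteins, and Il22ra1 (-2.54), a receptor chain for IL-22, were lower. The 2 higher genes were Lcn2 (1.54), a siderophore-binding protein, and C3 (1.18), the complement component. In female KO MTECs 6 were lower and 0 higher, beside 10.4% of all genes called, led by Lrg1 (-3.23), Lbp (-1.31), Orm1 (-1.18) and Cp (-0.99), the copper-carrying ceruloplasmin.

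**Figure D4:**
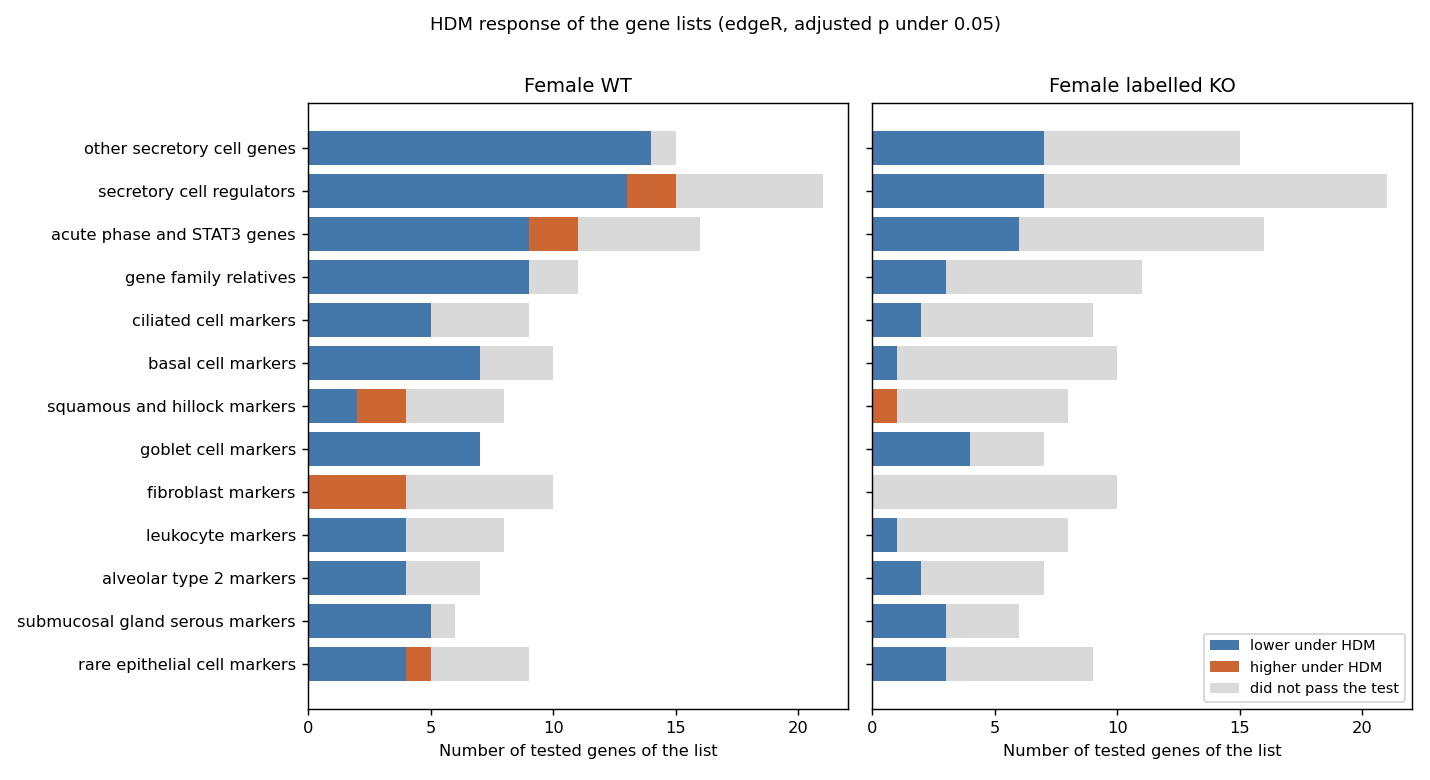
Number of tested genes of each list that were lower, higher or not called with HDM in female WT and female KO MTECs (edgeR, adjusted p under 0.05). In female WT MTECs 14 of 15 other secretory cell genes and 7 of 7 goblet cell markers were lower and 4 of 10 fibroblast markers higher, and in female KO MTECs the lower counts were 7 and 4 and no fibroblast marker was called.

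Markers of other cells were also among the genes called with HDM in female WT MTECs, where 43.1% of all genes tested were called, and their part in the change of the 9 genes was not tested. All 7 tested goblet cell markers were lower, as were 7 of 10 basal cell markers, 5 of 9 ciliated cell markers, 4 of 8 leukocyte markers, 4 of 7 alveolar type 2 markers, 4 of 9 markers of rare epithelial cells (1 was higher) and 5 of 6 submucosal gland serous markers, a list that includes Bpifa1 itself. Of 8 squamous and hillock markers 2 were lower and 2 higher. Counting both directions, shares called were near that of all genes for ciliated, leukocyte, alveolar type 2, rare cell, squamous and hillock and fibroblast markers. The called ciliated, leukocyte and alveolar type 2 markers were all lower, however. Median log2 fold changes of these lists, in the same order, were -1.96, -0.72, -2.13, -2.53, -0.39 and 1.56, against -0.02 for all genes tested. Fibroblast markers were the group with higher genes alone, 4 of 10, and their summed level was 583 to 1674 CPM in female WT naive and 3749 to 7027 CPM in female WT HDM MTECs. The summed level of basal cell markers was 10720 to 11660 CPM and 2430 to 4539 CPM in these groups. In female KO MTECs the basal sum was 11110 to 12410 CPM naive and 11390 to 14220 CPM with HDM, the fibroblast sum was 784 to 986 and 1155 to 1200 CPM, and 1 of 10 basal and 0 of 10 fibroblast markers were called, against 10.4% of all genes tested. Goblet cell markers were at 97.6 to 108.4 CPM naive and 14.2 to 15.0 CPM with HDM in that group, with 4 of 7 lower. The median log2 fold change of the basal markers with HDM in female KO MTECs was -0.10. A link between these marker levels and the fall of the secretory genes was not tested. Of the defining markers, Cd3e of T cells and Pip of serous glands were below 0.1 CPM in every library.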

How the data were processed

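RNA was sequenced from 16 MTEC cultures, 2 for every combination of sex, genotype and treatment. Whole-number counts for each Ensembl gene, not normalized, were deposited by the authors as a single table. The submitters' processing notes name Trimmomatic 0.36, STAR 2.5.2b, featureCounts of Subread 1.5.2, DESeq2 and the build GRCm38, without their order. The annotation release, the strand setting and the treatment of reads that fit several genes are not given in the sources used here, so that reads of overlapping or near-identical genes cannot be assigned with certainty.

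All 16 columns were used. Columns were matched to samples by sex, genotype, treatment and replicate, and a column without a number was taken as the replicate left over in its group. Symbols, positions and exon lengths came from GENCODE M21 on GRCm38, which matched 49056 of 49315 identifiers, and the remaining 259 carried 0.0106% of the counts. Counts were scaled with TMM factors, and 15993 genes that passed edgeR's filterByExpr were tested with its quasi-likelihood test (edgeR 4.0.16, R 4.3.3) in 1 model of the 8 group means with 8 residual degrees of freedom, with Benjamini-Hochberg adjustment over all genes and a call at an adjusted p under 0.05. The common biological coefficient of variation was 0.142. Levels are TMM-scaled CPM, and levels per kilobase divide these by the exon length. Library totals of 21860698 to 43442188 counts set the counting error, which is all that the intervals cover.

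The genes and lists were chosen with earlier results of these data known. From each list the counts in each direction are given and at most the 4 called genes of greatest change, together with single genes where a count is small. Some genes stand in more than 1 list, such as Lbp, Ltf, Aqp3, Spdef and Foxa3. Genes alike in pattern are those of highest Pearson's r over the 16 libraries. Steps were tested on simulated data. Alternatives were DESeq2 1.42.0, upper-quartile scaling, library size only, TMM factors without the 9 genes, dropping the filter, a stricter filter of 10 counts per library, fits on the libraries of 1 comparison, a replicate block, each library left out and a pseudocount of 4 in place of 1, and the correlation without the female HDM libraries was added after the data were seen. Other steps used Python 3.11.15 with numpy 2.4.6, pandas 2.3.3, scipy 1.17.1 and matplotlib 3.10.9. Promoter windows came from RefSeq, and those of Hp, Lypd2, Scgb1a1 and Scgb3a2 are not shown.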

Additional observations from a re-analysis of the deposited data

Results flagged for a closer look

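The HDM response differed between male and female WT MTECs by the test of the difference itself (edgeR interaction contrast, adjusted p under 0.05) for 7 of the 9 genes. The male minus female difference on the log2 scale was 5.61 for Scgb3a2, 5.50 for Scgb3a1, 5.38 for Bpifa1, 5.37 for Reg3g, 4.99 for Scgb1a1, 4.94 for Lypd2 and 4.12 for Aqp5. In MTECs labelled KO it passed for Scgb3a1 (4.08) and Reg3g (3.25). The Scgb1a1 value in WT rested on 3 and 1 counts in the female WT HDM libraries. It was 4.10 without male WT HDM replicate 2 and 4.50 without female WT HDM replicate 2.

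In female MTECs the HDM response differed between the genotype labels for 6 genes, with KO minus WT differences on the log2 scale of 4.63 for Scgb3a2, 3.89 for Bpifa1, 3.23 for Lypd2, 2.98 for Aqp5, 2.93 for Reg3g and 2.30 for Scgb3a1. The female KO HDM libraries held Lman1 at 66.6 and 78.1 CPM and the naive ones at 12.8 CPM each. These comparisons share libraries with one another and are not independent.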

How the results depend on the processing

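Of the single-gene values recomputed under an alternative, 1042 kept their direction and their side of the threshold, 53 were no longer called, 45 became called and 26 changed sign. The 3 other scalings changed no count of called genes among the 9. Counts over all genes did move. For the HDM response in female WT MTECs they went from 6888 to 6870 (upper quartile) and 7005 (library size only). Without a filter on low counts 29397 genes were tested and more were called. The counts, each followed by that over all genes, were 9 of the 9 (2717) for the HDM response in female KO, 5 (149) in male WT and 4 (705) in male KO MTECs, 4 (644) and 7 (859) for the sex difference in naive WT and KO, 2 (135) and 4 (98) for KO minus WT in naive female and male, 7 (1896) in HDM male MTECs, 8 (1977) for the sex difference of the response in KO and 6 (668) for the genotype difference of the male response, and the cause was not tested. DESeq2 called 2 genes for the sex difference in naive KO, 4 for KO minus WT in HDM male MTECs and 4 for the sex difference of the response in KO (216, 562 and 1192 of all genes), and only the compared libraries gave 1 for KO minus WT in HDM male MTECs (1 of all genes). With at least 10 counts in every library Scgb1a1 and Bpifb1 were not tested.

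With single libraries left out, the count was 2 for the HDM response in female KO, 4 to 5 for KO minus WT in HDM female MTECs, 2 to 6 for the sex difference of the response in KO and 3 to 5 for the genotype difference of the female response. The remaining library of a group was then assumed to vary like the other groups. Log2 values that changed sign, none of them called, ranged from -0.12 to 0.51 for Hp in female WT, -0.55 to 0.030 for Hp in female KO, -0.60 to 0.81 for Lypd2, -0.98 to 0.030 for Scgb3a2 and -0.92 to 0.83 for Scgb1a1 in male WT, and -0.37 to 2.53 for Bpifb1, -0.022 to 1.15 for Scgb3a1, -0.057 to 0.88 for Aqp5 and -0.30 to 0.94 for Scgb3a2 in male KO MTECs with HDM. They ranged from -0.13 to 0.15 for Hp and -0.56 to 1.71 for Scgb1a1 between the sexes in HDM KO, -1.42 to 4.29 for Bpifb1 between the genotypes in HDM female MTECs, -0.37 to 0.27 for Hp in the sex difference of the KO response and -0.57 to 5.14 for Bpifb1 in the genotype difference of the female response. Hp between the sexes in HDM KO also left its value of -0.00031 for 1.0e-04 (upper quartile), 0.00053 (library size only), 0.013 (at least 10 counts), 0.0021 (compared libraries), 0.0054 (replicate block) and 0.0039 (DESeq2).

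What a shared replicate number marks is not given in the sources used here, including whether a naive and an HDM library of 1 number came from the same pool of tracheas. The correlations of the replicate deviations over the 12 pairs of groups ran from -0.29 to 0.61 and, for naive with HDM, were 0.359 in female WT, 0.61 in male WT, -0.156 in female KO and -0.0742 in male KO MTECs, so that the fit without a block was kept. With a replicate block the count was 4 for KO minus WT in HDM male MTECs (480 of all genes in place of 0) and 5 for the sex difference of the response in KO (1062 in place of 569), and all other counts stayed within 1.5 times. Depth limits Scgb1a1 and Bpifb1, with 0 to 5 counts in the female WT HDM libraries.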
